A study of Mus musculus with 6 samples.

Results

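The exon junction complex (EJC) is a set of proteins that the spliceosome leaves on messenger RNA (mRNA) just upstream of each junction between exons, and Eif4a3 encodes the RNA helicase that clamps it there. A list of 9 genes was examined: Eif4a3, its relatives Eif4a1 and Eif4a2, the core partners Magoh, Magohb, Rbm8a and Casc3, and the attached factors Upf3b and Rnps1. The list was chosen by function around Eif4a3, which had itself been selected on the genotype difference reported here, so its change is described without a test. Each gene was read from the probe set annotated to that symbol alone, taking the highest mean over the 6 arrays where there were several. By this rule 6 of the 9 genes were found among 19938 genes in all: Eif4a3, Eif4a1, Eif4a2, Rbm8a, Casc3 and Rnps1. Magoh, Magohb and Upf3b are not analysed here.

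The tissue was the mandibular arch, the embryonic bud of the lower jaw, dissected from C57BL/6 mouse embryos at embryonic day 9.5. There were 3 arrays for Tbx1-/- embryos (Tbx1 null), which lack the T-box factor Tbx1, a regulator of pharyngeal development, and 3 for Tbx1+/+ embryos (wild type). Arches of 3 embryos per genotype were pooled, and whether the 3 arrays of a genotype came from separate pools is not stated. The sources used here do not give the construction of the null allele.

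The EJC stays on an mRNA through export and is removed during translation. It promotes splicing and export of the transcript, and an EJC left downstream of a stop codon marks the mRNA for nonsense-mediated decay (NMD). Eif4a3 is a DEAD-box helicase locked onto RNA by the pair formed by Rbm8a (Y14) with Magoh or Magohb, while Casc3 (MLN51) joins the core and Rnps1 binds at its periphery. Eif4a1 and Eif4a2 are the helicases of eIF4F, the complex that prepares capped mRNA for the ribosome. In humans, reduced EIF4A3 function causes Richieri-Costa-Pereira syndrome, in which the lower jaw is cleft.

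Values are log2 expression levels on a scale where 1 unit is a doubling, with array medians of 7.98 to 8.04. Tbx1 itself had log2 levels of 9.48, 9.39 and 9.63 on the Tbx1 null arrays, against 11.64, 11.36 and 11.31 on the wild-type arrays. Its log2 change was -1.94 (limma adjusted p = 0.000684), which fits the labels. The arch mesenchyme genes Dlx5, Prrx1 and Barx1 averaged 12.93, 12.89 and 12.49 in Tbx1 null, against 12.86, 12.70 and 12.47 in wild type, so markers of the labelled tissue were present in both. Y-linked Uty had log2 levels of 9.39, 9.08 and 5.22 on the Tbx1 null arrays, against 8.32, 8.93 and 9.62 on the wild-type arrays. Kdm5d and Eif2s3y, also Y-linked, were lowest on Tbx1 null replicate 3 too (6.18 and 5.79), where Xist, expressed in females, was highest (13.10). Arrays within a genotype thus differed in the RNA they carried and in its share from male embryos. The part of sex in the changes below was not tested. The median SE of a log2 change over all genes was 0.0579. Log2 levels of different probe sets cannot be set against each other, so no order of the genes by level is given.

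A near copy of Eif4a3, Eif4a3l1, is annotated elsewhere in the mouse genome, and the platform annotation names both on some probe sets. The DNA before their annotated starts is shown to place the gene beside its copy. The result turns on which of them a probe set reads, which this DNA does not show. Each line holds the 250 bases before the start in RefSeq's table for GRCm38.p6, with CpG dinucleotides (CG) in capitals. The Eif4a3 window is chr11:119300044-119300293 on the minus strand and the Eif4a3l1 window is chr6:136327289-136327538 on the plus strand.
Eif4a3: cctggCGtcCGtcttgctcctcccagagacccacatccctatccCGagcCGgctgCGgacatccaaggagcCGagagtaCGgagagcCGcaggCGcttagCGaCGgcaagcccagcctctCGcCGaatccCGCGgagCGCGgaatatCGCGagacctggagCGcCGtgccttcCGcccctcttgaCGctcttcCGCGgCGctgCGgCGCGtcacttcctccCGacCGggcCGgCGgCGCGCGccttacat
Eif4a3l1: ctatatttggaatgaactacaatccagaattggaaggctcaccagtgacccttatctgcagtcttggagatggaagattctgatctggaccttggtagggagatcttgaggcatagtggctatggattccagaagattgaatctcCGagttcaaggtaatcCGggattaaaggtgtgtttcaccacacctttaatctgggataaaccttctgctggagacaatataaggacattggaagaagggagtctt
The window before Eif4a3 held 36 CpG dinucleotides and was 70.0% G or C. The window before Eif4a3l1 held 2 and was 43.6% G or C, and the median over 32851 such windows was 6 CpG dinucleotides and 52.4%. The windows of Eif4a1 and Eif4a2 held 18 and 27. The letters GGTGTGA, a half-site bound by T-box factors, were searched on both strands in the full windows, which run to 50 bases past the start. They occurred in none of those of Eif4a3, Eif4a3l1, Eif4a1 and Eif4a2, and in 3.979% of all windows.

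Eif4a3 was lower in the Tbx1 null arches by its own probe set. Probe set 10393642 (Entrez gene 192170) had log2 levels of 10.01, 9.80 and 10.05 on the Tbx1 null arrays, against 10.57, 10.48 and 10.48 on the wild-type arrays. The genotypes did not overlap, with Tbx1 null lower as for 7.06% of all genes, and Tbx1 null replicate 2 was the lowest of the 6. The means were 9.96 ± 0.14 in Tbx1 null and 10.51 ± 0.05 in wild type (SD, n = 3 each). The difference in log2 level was -0.56, or 1.47-fold lower. Only 37 of the 19938 genes, Eif4a3 included, had a change this low or lower. In RNA from whole tissue, fewer cells that express a gene and less of its RNA per cell cannot be told apart.

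The gene was selected because limma placed it among the 32 genes with an adjusted p under 0.05, which are 0.16% of the genes in the fit. It stood at that threshold: among genes lower in Tbx1 null, Eif4a3, Foxd2 and Car2 lay just inside it, with log2 changes of -0.56, -0.44 and -0.69, and Septin8 and Meox1 just outside, with -0.42 and -0.50. With any 1 of the 6 arrays left out, its log2 change lay between -0.61 and -0.48 and it was no longer past the threshold. The value closest to 0 came from leaving out Tbx1 null replicate 2.

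**Figure D1:**
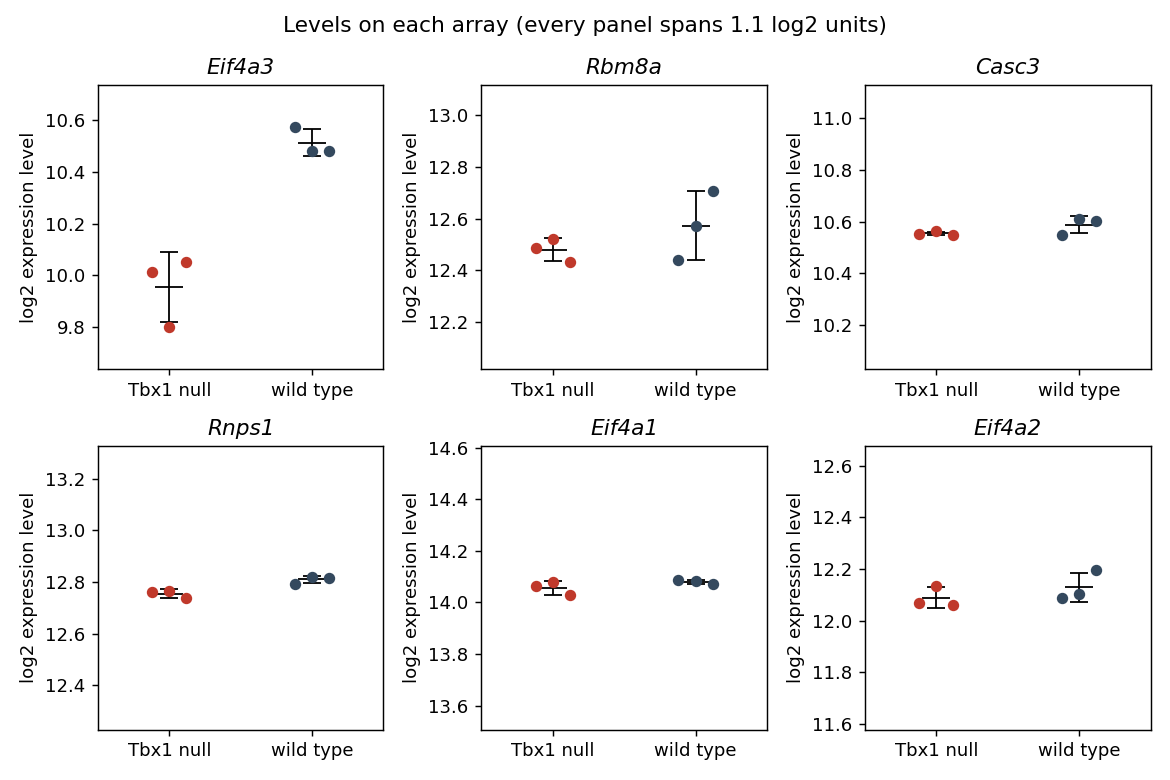
Log2 expression level (vertical axis) on each of 3 Tbx1 null arrays (red, left) and 3 wild-type arrays (blue, right) for the 6 measured genes, with the mean and SD as bars. Every panel spans 1.1 log2 units: the Eif4a3 points separate by genotype, at 9.80 to 10.05 in Tbx1 null against 10.48 to 10.57 in wild type, while those of the other genes lie close together.

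The probe sets that name Eif4a3 together with Eif4a3l1 gave much smaller differences. Probe set 10539177 had log2 levels of 12.54, 12.51 and 12.46 on the Tbx1 null arrays, against 12.56, 12.60 and 12.62 on the wild-type arrays. Probe set 10541067 had 12.03, 12.01 and 11.93 on the Tbx1 null arrays, against 12.05, 12.08 and 12.11 on the wild-type arrays. Both lay lower on every Tbx1 null array than on any wild-type array, by narrow gaps. Over all genes 7.06% showed this pattern. Their log2 changes were -0.08 (95% confidence interval -0.19 to 0.02) and -0.09 (-0.20 to 0.02), and neither passed in a limma fit to all 35556 probe sets (adjusted p = 0.638 and 0.628). The Eif4a3 probe set did not pass in that fit either, which is no test of a gene selected on these arrays. The mean change of the 3 probe sets that name Eif4a3 was -0.24.

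The copy did not share the direction by its own probe set. Probe set 10542369, annotated to Eif4a3l1 alone, had log2 levels of 7.83, 8.06 and 7.88 on the Tbx1 null arrays, against 7.66, 7.80 and 7.79 on the wild-type arrays. The Tbx1 null arrays were all higher than the wild-type arrays, as for 8.36% of all genes. Tbx1 null replicate 2, the lowest for Eif4a3, was the highest for Eif4a3l1. The log2 change was 0.17 (SE 0.07), which did not pass over all genes (limma adjusted p = 0.496, unadjusted p = 0.0422). Which transcripts each probe set hybridises with was not tested, and no probe sequences were used here. The 1.47-fold difference is therefore that of a single probe set.

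**Figure D2:**
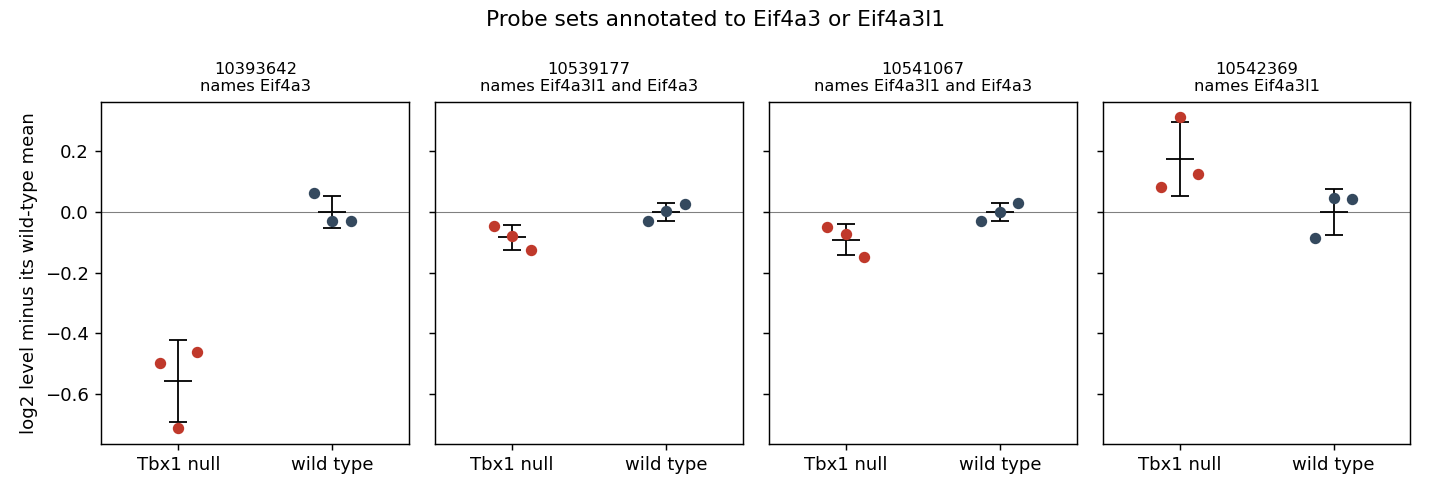
Log2 level minus the wild-type mean of the same probe set (vertical axis) on Tbx1 null (red, left) and wild-type (blue, right) arrays, for the 4 probe sets that name Eif4a3 or Eif4a3l1, with mean and SD as bars. The probe set naming Eif4a3 alone was lower by 0.56 in Tbx1 null, those naming both genes by 0.08 and 0.09, and the one naming Eif4a3l1 alone was higher by 0.17.

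The measured partners of Eif4a3 in the EJC did not pass the test. Rbm8a, the Y14 subunit that locks the helicase on RNA, had log2 levels of 12.49, 12.52 and 12.43 on the Tbx1 null arrays, against 12.44, 12.57 and 12.71 on the wild-type arrays. The genotypes overlapped, and the wild-type arrays were spread more widely. Its log2 change was -0.09 (95% confidence interval -0.26 to 0.07, limma adjusted p = 0.757). Casc3, the fourth core subunit, had 10.55, 10.56 and 10.55 on the Tbx1 null arrays, against 10.55, 10.61 and 10.60 on the wild-type arrays. Its change was -0.03 (-0.13 to 0.06, limma adjusted p = 0.868), and the genotypes overlapped through wild type replicate 1.

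Rnps1, a splicing regulator bound to the EJC, differed by a small and even step. Its log2 levels were 12.76, 12.77 and 12.74 on the Tbx1 null arrays, against 12.79, 12.82 and 12.82 on the wild-type arrays. The genotypes did not overlap, a pattern with the Tbx1 null arrays lower that 7.06% of all genes showed. The log2 change was -0.05 (-0.15 to 0.04, limma adjusted p = 0.746), and a further probe set of the gene with a mean level of 12.76 gave -0.07.

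The translation initiation helicases Eif4a1 and Eif4a2, the closest relatives of Eif4a3 on the list, gave no call either. Eif4a1 had log2 levels of 14.06, 14.08 and 14.03 on the Tbx1 null arrays, against 14.09, 14.08 and 14.07 on the wild-type arrays. Its log2 change was -0.02 (-0.12 to 0.07, limma adjusted p = 0.911). Its other probe sets, with mean levels of 13.86 and 13.75, gave -0.03 and -0.04. Both had no overlap between the genotypes, with Tbx1 null lower, as for 7.06% of all genes on the probe sets chosen for them. Eif4a1 lies near the top of the array's range, which ended at 14.6, where such values tend to understate changes. Eif4a2 had 12.07, 12.13 and 12.06 on the Tbx1 null arrays, against 12.09, 12.10 and 12.19 on the wild-type arrays. Its log2 change was -0.04 (-0.15 to 0.07, limma adjusted p = 0.864), with overlap between the genotypes for both genes on the probe sets chosen.

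Of the 5 measured genes other than Eif4a3, 0 passed a limma adjusted p of 0.05, and at an unadjusted p under 0.05 also 0 were higher and 0 lower, where 5.5% and 3.94% of all genes were. That background depends on the scaling: 1097 genes were higher and 786 lower at this p, which became 899 and 1419 after another quantile normalisation and 693 and 1386 after centring on array medians. All 5 changes lay below 0, as did 53.5% of all genes, and their median was -0.04 against -0.01 over all genes. Eif4a3, which was selected for its lower value, is left out of these counts.

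**Figure D3:**
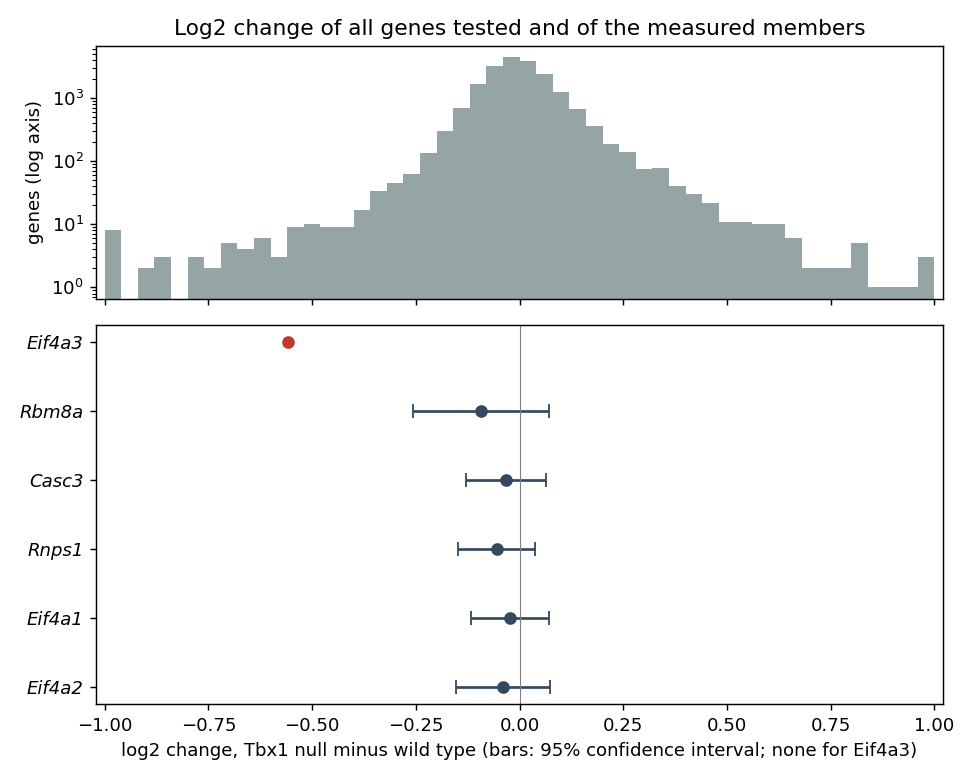
Upper panel: number of genes (log axis) by log2 change, Tbx1 null minus wild type, over all 19938 genes, with changes beyond 1 unit placed in the end bins. Lower panel: log2 change of the 6 measured genes, with a 95% confidence interval for all but Eif4a3, which was selected on this difference and stands at -0.56. The other intervals include 0.

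Other proteins of the EJC cycle gave no call. Of the periphery, 4 of 4 listed genes were measured and 0 passed, also at an unadjusted limma p under 0.05: besides Rnps1, the apoptotic chromatin condensation factor Acin1 and its partners Sap18 and Pnn had log2 changes of 0.01, -0.04 and -0.03. Cwc22, the spliceosome protein that brings Eif4a3 to the pre-mRNA, had log2 levels of 11.84, 11.42 and 12.11 on the Tbx1 null arrays, against 11.56, 11.65 and 12.05 on the wild-type arrays. It varied far more among arrays of a genotype than most genes, and its change of 0.04 had an SE of 0.19. The log2 change was 0.003 for Cwc27, another spliceosome protein, 0.04 for Pym1, which takes the EJC off mRNA at the ribosome, and -0.02 for Ipo13, which imports the Rbm8a and Magoh pair into the nucleus. The Rbm8a pseudogene Rbm8a2 had means of 4.34 in Tbx1 null and 4.39 in wild type, close to the lowest value of the array set, 3.63. Together 6 of 7 genes of this loading, recycling and copy list were measured and 0 passed. Eif4a3l1 was the only one at an unadjusted limma p under 0.05, where 5.5% of all genes were higher and 3.94% lower.

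The pathways that the EJC feeds were read next. Of 16 listed NMD factors 13 were measured and 0 passed the limma adjusted p. At an unadjusted p under 0.05, 0 were higher and 0 lower, where 5.5% and 3.94% of all genes were. Their median log2 change was -0.01, against -0.01 over all genes. Smg1, the kinase that phosphorylates Upf1, had the highest change, 0.13, and Etf1, the release factor that reads stop codons, the lowest, -0.08. Transcripts that NMD is known to limit, such as Gas5, Atf4 and Gadd45b, formed a list of 21, of which 17 were measured. In it 0 passed and 0 were higher or lower at an unadjusted p under 0.05. The median was -0.02, and 13 lay below 0 (76.5%, against 53.5% of all genes). Their mean log2 level was 10.64 to 10.65 on the Tbx1 null arrays, against 10.66 to 10.69 on the wild-type arrays. The stress factor Atf3 was lowest with -0.14 and Gadd45b highest with 0.03.

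Export and translation genes gave no call at the adjusted threshold. Of 15 listed genes of mRNA export 14 were measured and 0 passed. At an unadjusted limma p under 0.05, 1 was lower (7.14%, against 3.94% of all genes). That gene was the export helicase Ddx39a, with log2 levels of 11.48, 11.51 and 11.44 on the Tbx1 null arrays, against 11.56, 11.58 and 11.69 on the wild-type arrays. Its change of -0.13 was the lowest of the list (limma adjusted p = 0.461), and that of Thoc6, a subunit of the THO complex, the highest with 0.03. The eIF4F list had 13 of 14 genes measured, 0 passing and a median of -0.01. At an unadjusted p under 0.05 it had 0, where 5.5% of all genes were higher and 3.94% lower. Its extremes were Pdcd4, an inhibitor of eIF4A, with 0.15 and the cap-binding protein gene Eif4e with -0.06.

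Splicing genes gave no call at the adjusted threshold. Of 24 genes of the spliceosome 18 lay below 0 (75%, against 53.5% of all genes), with a median log2 change of -0.03. Their mean log2 level overlapped between the genotypes, at 11.90 to 11.91 on the Tbx1 null arrays, against 11.90 to 11.97 on the wild-type arrays. Of the 24, 4 had no overlap with Tbx1 null lower (16.7%, against 7.06% of all genes). With Tbx1 null higher there were 0 (against 8.36%). None (0) passed. At an unadjusted limma p under 0.05 there was 1 lower gene (4.17%, against 3.94% of all genes) and 0 higher (against 5.5%). Snrpa1, a protein of the U2 particle, was the lowest with -0.12 (limma adjusted p = 0.449), and Prpf8, the scaffold of the catalytic core, the highest with 0.03. Splicing genes mutated in human syndromes of the face and jaw formed a list of 6, all measured. Of these 5 lay below 0 and 0 passed, also at an unadjusted p under 0.05. Eftud2, the gene of mandibulofacial dysostosis of the Guion-Almeida type, was the lowest, with 12.80, 12.75 and 12.76 on the Tbx1 null arrays, against 12.84, 12.86 and 12.82 on the wild-type arrays. Its arrays did not overlap, with Tbx1 null lower as for 7.06% of all genes, and its change was -0.07 (limma adjusted p = 0.655). The highest was Cwc27.

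Loss of EJC subunits is known to activate p53 in mouse neural progenitors, so p53 targets were listed. Of 20 genes 18 were measured and 0 passed, with 2 higher (Trp53inp1 and Perp) and 1 lower (Aen) at an unadjusted limma p under 0.05, where 5.5% of all genes were higher and 3.94% lower. The median log2 change was 0.04 and 12 lay above 0 (66.7%, against 46.5% of all genes). Trp53inp1, a p53-induced nuclear protein, was the highest, with 9.70, 9.87 and 9.96 on the Tbx1 null arrays, against 9.51, 9.33 and 9.45 on the wild-type arrays. The genotypes did not overlap, with Tbx1 null higher as for 8.36% of all genes, and its change was 0.41 (limma adjusted p = 0.123). Aen, an apoptosis nuclease, was the lowest with -0.13. Cell cycle genes had 19 of 20 measured and 0 passing, also at an unadjusted p under 0.05. Of them 17 lay below 0 (89.5%, against 53.5% of all genes), with a median of -0.05. The proliferation marker Mki67 was at 0.07 and the replication helicase gene Mcm3 at -0.09. Their mean log2 level was 12.51 on the Tbx1 null arrays, against 12.53 to 12.57 on the wild-type arrays. Of the 19, 5 had no overlap with Tbx1 null lower (26.3%, against 7.06% of all genes). With Tbx1 null higher there were 0 (against 8.36%).

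Within the DEAD-box family, the helicases that share the fold of Eif4a3, 38 genes were measured and none but Eif4a3, which was selected for it, passed the adjusted threshold. At an unadjusted limma p under 0.05, 5 of 38 (13.2%) were lower, among them Eif4a3, which was selected for its change, and 1 was higher, against 3.94% lower and 5.5% higher over all genes. The other 4 lower genes were Ddx18, Ddx21 and Ddx56, which act in ribosome assembly, and Ddx39a, with log2 changes between -0.13 and -0.11. Ddx58, which encodes the viral RNA sensor RIG-I, was the highest with 0.19. Of the family 29 lay below 0 (76.3%, against 53.5% of all genes), with a median of -0.04 against -0.01 over all genes. No overlap with Tbx1 null lower was seen for 7 (18.4%, against 7.06% of all genes). With Tbx1 null higher there were 2 (5.26%, against 8.36%). The family's mean log2 level was 10.75 to 10.76 on the Tbx1 null arrays, against 10.77 to 10.85 on the wild-type arrays. Eif4a3 is counted in each of these family values, so they are in part set by its selection.

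**Figure D4:**
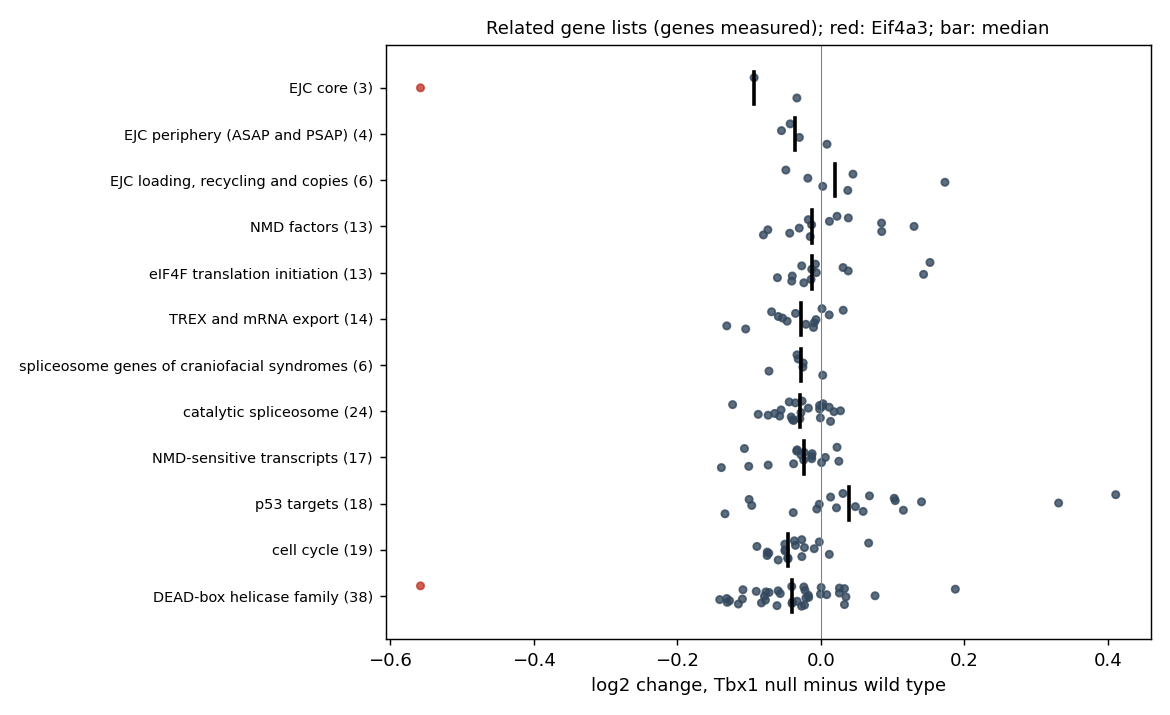
Log2 change, Tbx1 null minus wild type (horizontal axis), of each measured gene in 12 lists, with the number measured in brackets, the list median as a black bar and Eif4a3 in red. List medians, with Eif4a3 counted in its own lists, lie between -0.09 and 0.04. Eif4a3 stands at -0.56, away from the other genes of its lists.

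The gene's neighbours on the chromosome were not called. The nearest protein-coding genes on either side of Eif4a3 are Gaa, which encodes lysosomal alpha-glucosidase, and Card14, a scaffold of NF-kappaB signalling. Gaa had a log2 change of -0.16 (SE 0.11, limma adjusted p = 0.722) and Card14 of -0.03 (SE 0.07, limma adjusted p = 0.935).

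The genes most like Eif4a3 over the 6 arrays were Hlx, Meox1, Foxe3, Chrdl1 and Foxl2os, in that order. Likeness was the smallest root mean square difference between log2 values centred on each gene's mean, which was 0.0555 for Hlx and 0.0802 for Foxl2os. Hlx and Meox1 are homeobox genes, Foxe3 is a forkhead gene of the lens, Chrdl1 encodes a secreted BMP antagonist and Foxl2os is transcribed opposite Foxl2. Their log2 changes lay between -0.53 and -0.45, and they were picked by a measure in which the genotype step weighs most, so these values describe the choice. Hlx had log2 levels of 9.56, 9.45 and 9.67 on the Tbx1 null arrays, against 10.19, 10.05 and 9.97 on the wild-type arrays. Like Eif4a3, Hlx, Meox1, Foxe3 and Foxl2os were lowest on Tbx1 null replicate 2, which the measure favours, and Chrdl1 on Tbx1 null replicate 1. The other measured EJC and Eif4a genes were far from this pattern: Rnps1, the nearest, ranked 3751 among all genes.

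Markers of other cell types differed between the same arrays. All 11 measured primitive erythroid markers, Hbb-bh1 and Hba-x among them, were lower at an unadjusted limma p under 0.05 (0 of 11 past the adjusted threshold), and their mean log2 level was 9.72 to 9.76 on the Tbx1 null arrays, against 9.97 to 10.03 on the wild-type arrays. Of 12 cardiac muscle markers 9 were higher at that p and 1, Tbx20, passed the adjusted threshold, with mean levels of 8.70 to 9.20 in Tbx1 null, against 8.33 to 8.58 in wild type. At the same p, where 5.5% of all genes were higher and 3.94% lower, epithelial markers had 4 of 10 higher (10.90 to 10.99 in Tbx1 null, against 10.72 to 10.83 in wild type), and arch mesenchyme markers 5 of 12 higher and 1 lower (11.39 to 11.48 in Tbx1 null, against 11.21 to 11.37 in wild type). Neural markers had 1 of 12 higher and 3 lower (7.63 to 7.71 in Tbx1 null, against 7.66 to 7.88 in wild type), and of 10 endothelial markers 0 were higher or lower (10.42 to 10.62 in Tbx1 null, against 10.54 to 10.56 in wild type). Of the epithelial, mesenchyme, neural and endothelial markers 0 passed the adjusted threshold. No marker was at 0, since the lowest value in the data is 3.63. Their part in the lower Eif4a3 value was not tested.

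The Eif4a3 value was recomputed under 14 alternatives in normalisation, filtering, weighting and arrays used, of which 5 leave its log2 change as it is by construction. Under the other 9 the change lay between -0.61 and -0.48. The gene was not past the threshold in 8 of the 14. It was selected on these arrays, so that count is no test of its change. Under these 14, the changes of the other 5 genes lay between -0.16 and -0.01 with all 70 values below 0. Several of the alternatives leave these changes as they are too, and all reuse the same arrays, so the 70 values are not separate results. Over all genes the split of the 32 calls, 17 higher and 15 lower, became 12 and 22 after another quantile normalisation and 16 and 30 after centring on array medians.

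**Figure D5:**
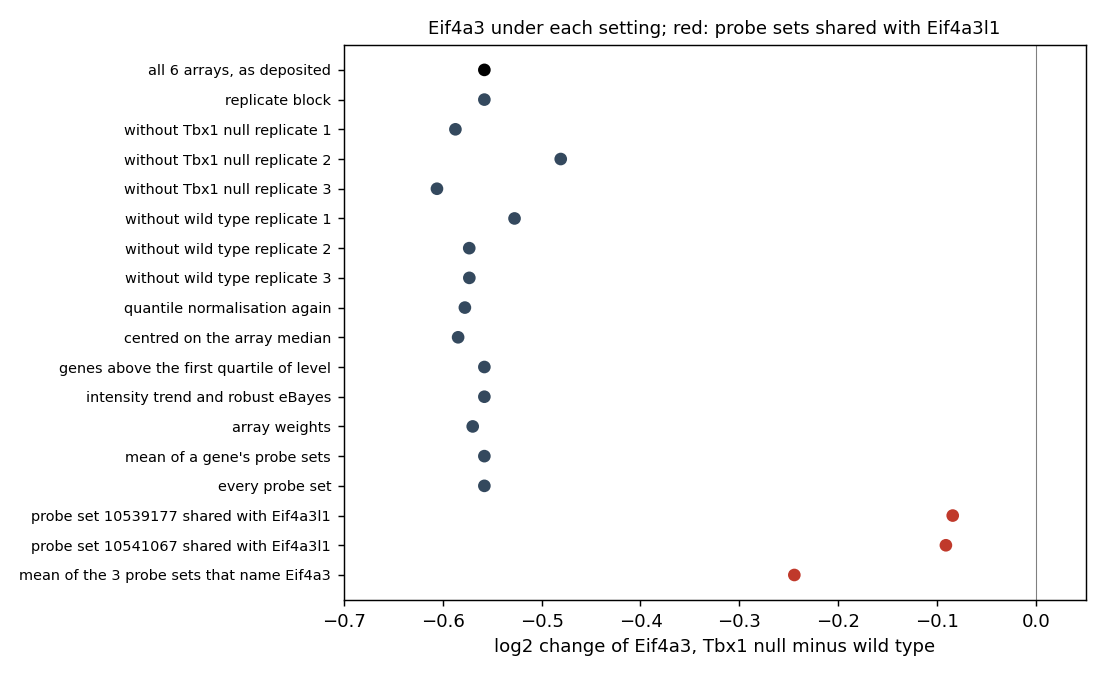
Log2 change of Eif4a3, Tbx1 null minus wild type (horizontal axis), with all 6 arrays as deposited (black) and under 14 alternatives (blue, 5 of which cannot move it). Red points are the probe sets shared with Eif4a3l1 and the mean of the 3 probe sets that name Eif4a3. The blue points lie between -0.61 and -0.48. The shared probe sets lie at -0.08 and -0.09. The mean lies at -0.24 and includes the probe set naming Eif4a3 alone.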

How the data were processed

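Per the submitters' processing notes, the authors ran RMA in Affymetrix Expression Console 1.1 on Affymetrix Mouse Gene ST 1.0 arrays. The deposited table holds log2 values, 1 per probe set and array. Labelled cRNA came from 300 ng of RNA, per the labels' protocols. The sources used here name no library files or genome build. RMA aligns the arrays' distributions, so a shift of most genes cannot be seen. The range of 3.63 to 14.6 shows the log2 scale. The number of arrays limits the precision.

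Of 35556 probe sets, 21789 had 1 symbol in the platform annotation, which gave 19938 genes by the probe set of highest mean. The comparison used limma 3.58.1 (R 4.3.3; lmFit and eBayes, two-sided, no covariate), with p-values adjusted by Benjamini-Hochberg over all genes, at 0.05. The fit was also run on simulated independent values with variances drawn from its own prior. Such values cannot test the effect of shared pools, sex or tissue content. The p-values reflect how these arrays vary. Y-linked levels show that arrays of a genotype carried different RNA, but how many separate pools there were is not stated.

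Members and lists were chosen with earlier results of these data known. Named were the listed EJC genes, the extremes and called members of other lists, the 5 genes most like Eif4a3, its neighbours, Tbx1 and defining markers. Uty, Kdm5d, Eif2s3y, Xist, Hbb-bh1, Gas5, Atf4, and the genes at the threshold or at an unadjusted p under 0.05 were named after their values were seen. Promoter windows came from RefSeq (GRCm38.p6) and matched 3 of the 6 measured genes.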

Additional observations from a re-analysis of the deposited data

How the results depend on the processing

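The count of 32 genes past the threshold became 6 with a replicate block, 96 with an intensity trend and robust estimation, and 334 with array weights. It became 4 when every probe set was tested, and 3 to 20 with 1 array left out. The cause of these shifts was not tested. Without Tbx1 null replicates 1, 2 and 3 it was 3, 3 and 10, and without wild type replicates 1, 2 and 3 it was 13, 3 and 20. Eif4a3 was refitted under 14 alternatives in normalisation, filtering, weighting and arrays used. It was past the threshold in 6 and not in 8 (the replicate block, every probe set and each array left out). It was selected on these same arrays, so this count shows how its call depends on the processing and does not test it. With 1 array left out its log2 change was -0.61 to -0.48. The alternatives chosen after seeing the data gave -0.084 and -0.091 from the shared probe sets 10539177 and 10541067 and -0.24 from the mean of the 3 probe sets that name Eif4a3. None of the other 5 measured genes passed under any of these 14 (lowest limma adjusted p = 0.382). Same-numbered arrays of the genotypes had deviations that correlated at -0.05, 0.26 and 0.15 for numbers 1, 2 and 3, and Tbx1 null replicate 1 correlated best with wild type replicate 2 (0.25), so the numbers were not taken as pairs.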
